A study of Mus musculus with 24 samples.

Results

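The genes described here encode membrane carriers of amino acids, sugars and monocarboxylates, and were chosen by name: every array probe whose gene symbol belonged to the Slc1, Slc2, Slc3, Slc5, Slc6, Slc7, Slc16, Slc38 or Slc43 family, apart from Slc2a1, Slc7a2 and Slc7a11. The rule used no measured value and took 84 of the 21597 gene symbols on the array, held by 135 probes in 9 families. Of these, 66 genes passed the filter on dim probes and were tested among 17347 genes. Of the other 18, 16 were not well above background in any channel; among the 18 were Slc16a5, Slc16a12, Slc16a14, Slc1a3, Slc1a7, Slc2a12, Slc5a2, Slc5a3, Slc5a8, Slc5a9, Slc6a2, Slc6a5, Slc6a18, Slc6a20, Slc7a10, Slc7a12 and Slc7a13. For 34 of the 84 genes the signal was well above background in all 24 channels.

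Cells of C57BL/6 mice were either left as controls or given Kdo2 lipid A (KLA), the lipid A core of bacterial lipopolysaccharide and an agonist of the receptor TLR4. Elicited peritoneal macrophages (EPM) had been drawn into the peritoneum by thioglycollate, bone marrow-derived macrophages (BMDM) had been grown in medium conditioned by L cells as a source of M-CSF, and B cells were resting cells of the spleen, left after cells with CD43 or CD11b had been removed. The groups were untreated EPM, EPM after 1 h of KLA, EPM after 12 h of the vehicle DMSO and EPM after 12 h of KLA; BMDM after DMSO or KLA for 1 or 12 h; and untreated B cells, B cells after 1 h of KLA and B cells after DMSO or KLA for 12 h. Each of the 12 groups held 2 samples, which shared 1 two-colour array, and each cell type had its own slide. Array and condition, and slide and cell type, therefore cannot be told apart, and the media also differed between the macrophages, with DMEM for EPM and RPMI for BMDM.

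The carriers fall into families by what they move and by what drives them. Sugars enter down their gradient through Slc2 carriers and with sodium through Slc5 carriers, while Slc16 carriers move lactate, pyruvate and related molecules, often with a proton. Neutral amino acids and glutamine are taken up with sodium by Slc1a5 and the Slc38 family, exchanged for one another by light chains of the Slc7 family that pair with a heavy chain of the Slc3 family, and released or taken up without exchange by Slc43 carriers. The Slc6 family uses sodium and chloride to bring in creatine, taurine, glycine, betaine and neurotransmitters. Activated macrophages are known for a high uptake of glucose and for the release of lactate.

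All 10 macrophage marker genes were well above background in every EPM and BMDM group, and all 10 B cell markers in every B cell group. Of the macrophage markers 5 to 6 were well above background in each B cell group, at a summed level of 11.45 to 12.7 on the log2 scale against 18.88 to 19.09 in macrophages, and Itgam, Mrc1, Mertk and Fcgr1 were not. Of the B cell markers 5 to 7 were well above background in each macrophage group, at 14.4 to 16.02 against 18.12 to 18.38 in B cells, and Cr2, Ebf1 and Fcer2a in none. The summed level of 8 neutrophil genes was 13.41 to 14.49 in BMDM and 10.21 to 11.02 in EPM on the log2 scale, that of 3 dendritic cell genes 8.733 to 9.361 in BMDM and 12.2 to 13.68 in EPM, and their part in the differences between these cells was not tested. Between 57.45% and 64.95% of probes were well above background per channel. In the values the authors deposited, 4 of 24 columns, those labelled B cell KLA 1 h and B cell DMSO 12 h, matched the scanner signals of the other of these groups, so the differences with KLA in B cells named in the text are also given with the labels of these groups exchanged, while figures show the samples as labelled.

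At 1 h of KLA few of the carriers had moved, and at 12 h most of those in BMDM had. Of the 66 genes, 9 were higher and 6 lower in EPM after 1 h, against 9.39% and 19.7% of all genes tested; 12 were higher and 7 lower in BMDM, against 11% and 17.6%. After 12 h, 17 were higher and 18 lower in EPM, where 19.6% and 34.3% of all genes were called, and 24 were higher and 23 lower in BMDM, where the shares were 28.6% and 36.3%. In the order given, the carriers called were 13.6% and 9.09% of the 66 genes in EPM and 18.2% and 10.6% in BMDM at 1 h, and 25.8% and 27.3% and then 36.4% and 34.8% at 12 h. Their median difference at 1 and 12 h was -0.01 and -0.02 in EPM and 0.02 and 0.00 in BMDM on the log2 scale, beside -0.05, -0.06, -0.03 and -0.03 over all genes. A gene was called at an adjusted p under 0.05 in limma, over 2 samples a group. These samples share an array: with each array as 1 sample, and the controls of a cell type pooled, 2 carriers were called in EPM and 1 in BMDM at 1 h (1.95% and 1.38% of all genes), and 18 and 24 at 12 h (22.7% and 34.6%).

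**Figure D1:**
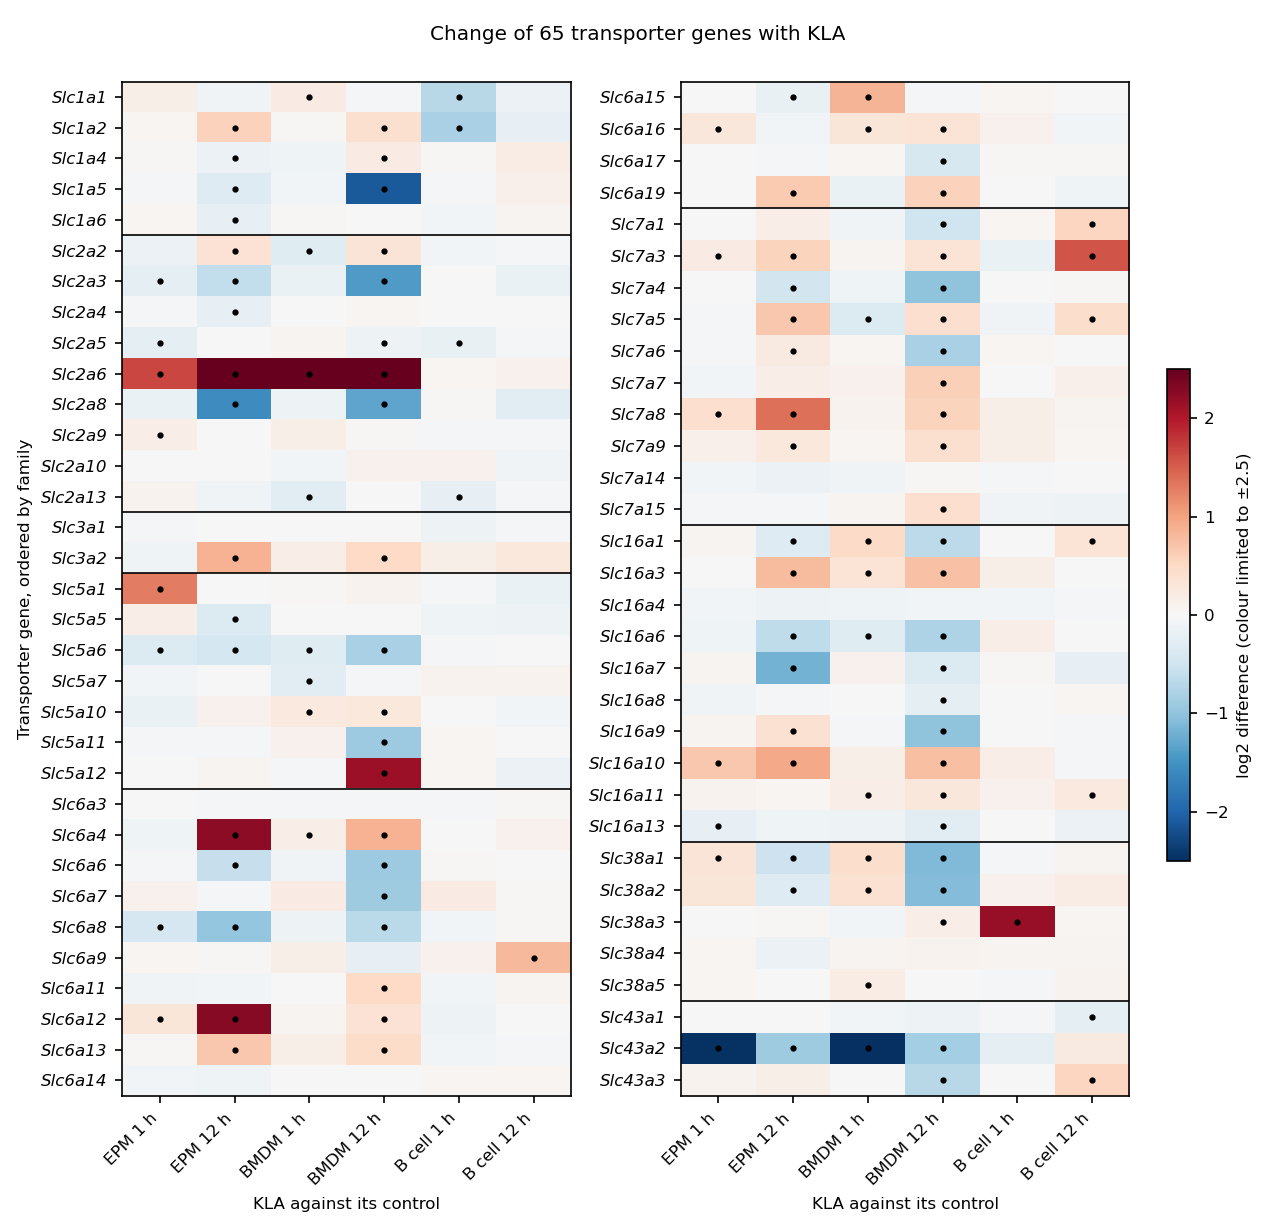
Log2 difference between KLA and its control (untreated cells for EPM and B cells at 1 h, DMSO of the same time otherwise) for 65 of the carriers tested (rows, grouped by family) in EPM, BMDM and B cells at 1 and 12 h (columns, B cells as labelled), with colour limited at 2.5 in either direction and a dot where the gene was called. Slc2a6 is the strongest increase in all 4 macrophage columns, Slc43a2 is lower in all 4, and the B cell columns hold few calls.

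Among the 9 Slc2 carriers, which move hexoses without sodium, 1 gene stood far from the rest. Slc2a6, a hexose carrier of intracellular membranes that is known from leukocytes and spleen, read 10.22 and 10.28 in untreated EPM, 11.91 and 11.93 after 1 h of KLA, 9.96 and 10.13 after 12 h of DMSO and 13.78 and 14.04 after 12 h of KLA, as log2 intensity. In BMDM it read 8.52 and 8.69 after 1 h of DMSO, 11.13 and 11.50 after 1 h of KLA, 8.57 and 8.78 after 12 h of DMSO and 13.81 and 14.05 after 12 h of KLA. KLA and control samples were well apart at each time, and the 2 kinds of macrophage, which started at different levels, reached overlapping ones at 12 h. The rise was 3.19-fold and 14.6-fold in EPM (log2 1.67 ± 0.13 and 3.86 ± 0.13, SE; adjusted p = 9.15e-09 and 8.3e-15) and 6.53-fold and 38.2-fold in BMDM (2.71 ± 0.13 and 5.26 ± 0.13; adjusted p = 8.16e-12 and 9.04e-17). It was also the only carrier called in both kinds of macrophage at 1 h with each array as 1 sample and the controls pooled, at 1.77 (adjusted p = 0.014) and 2.67 (adjusted p = 0.0083). Its 60-base probe lies at chr2:26843637-26843696 of mm8.

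The other Slc2 carriers called over 2-fold at 12 h went down. Slc2a8, an intracellular glucose carrier, read 9.84 and 10.06 in EPM after 12 h of DMSO and 8.33 and 8.42 after 12 h of KLA, a fall of 1.57 on the log2 scale (SE 0.09, adjusted p = 6.75e-11). In BMDM it went from 10.17 and 10.30 to 8.85 and 8.97, a fall of 1.32 (adjusted p = 5.55e-10), and a less bright second probe gave -0.81 and -0.78. Slc2a3, the high-affinity glucose carrier best known from neurons, fell by 0.61 in EPM and by 1.42 in BMDM at 12 h (adjusted p = 1.87e-07 and 7.57e-13). These values rest on 1 of 3 probes under this symbol. Another maps to chromosome 17 and was well above background in 15 of 24 channels, and the last was so in no channel. Over the alternative ways of processing, the 12 h difference ranged from -1.04 to -0.21 in EPM and from -1.84 to -0.37 in BMDM. Slc2a9, a urate carrier, was not called at 12 h (0.01 and 0.02).

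**Figure D2:**
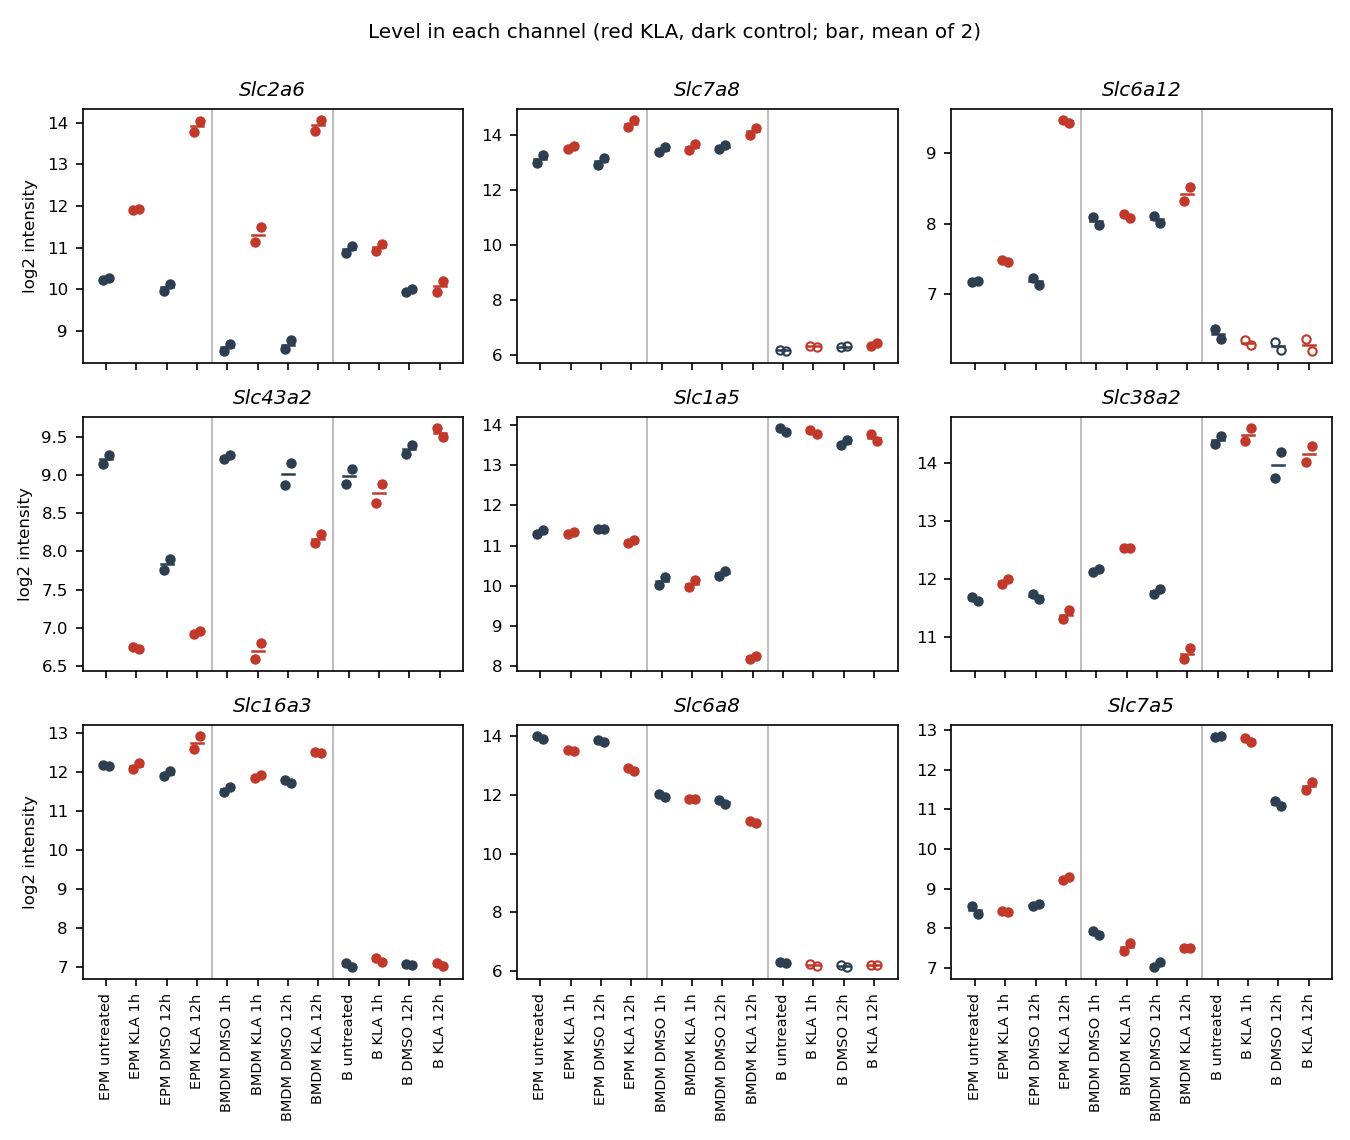
Log2 intensity of 9 carriers in each of the 12 groups, with 1 point per sample and open circles where the gene was not well above background in both channels of a group. Slc2a6 reaches 13.78 to 14.05 after 12 h of KLA in both kinds of macrophage, Slc1a5 reads 8.19 and 8.26 in BMDM after 12 h of KLA, and Slc7a8 and Slc6a8 sit near background in B cells.

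Of 7 Slc5 carriers, most were at or near background and the largest values came from single arrays. Slc5a6, which brings in the vitamins biotin and pantothenate with sodium, was well expressed and was lower in all 4 macrophage comparisons, with log2 differences of -0.35 and -0.43 in EPM and -0.30 and -0.82 in BMDM at 1 and 12 h (adjusted p from 0.00039 to 2.45e-10). Slc5a11, a sodium-coupled carrier of inositol, was at 7.97 and 8.09 in BMDM after 12 h of DMSO and at 7.11 and 7.13 after 12 h of KLA, a fall of 0.91 (adjusted p = 1.4e-10). In EPM it was near background at 6.21 to 6.36 in all samples. Slc5a12, a sodium-coupled lactate carrier known from kidney and gut, read 8.03 and 8.09 in BMDM after 12 h of KLA and 5.77 to 6.04 in the other 22 samples, exceeding its control by at least 4.11-fold (adjusted p = 3.69e-16). Slc5a1, the sodium-glucose carrier of the gut, read 7.05 and 7.21 in EPM after 1 h of KLA and 5.78 to 6.04 elsewhere, exceeding its control by at least 2.21-fold (adjusted p = 3.2e-11). Each gene entered the fit through the 1 array where it was well above background, and a fit of all genes with no such filter gave adjusted p of 1.99e-16 and 2.19e-11. A second probe of each gene was not well above background in these arrays and gave 0.03 for Slc5a12 and -0.13 for Slc5a1. For Slc5a12 that second probe has a RefSeq match and the probe used has none.

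The Slc16 family moved in both directions at 12 h, with 4 of 11 genes higher and 3 lower in EPM and 4 higher and 6 lower in BMDM, where 19.6% and 34.3% and then 28.6% and 36.3% of all genes were called. Slc16a3, the carrier known for the release of lactate from glycolytic cells, read 11.89 and 12.03 in EPM after 12 h of DMSO and 12.59 and 12.92 after KLA, and 11.79 and 11.73 then 12.51 and 12.49 in BMDM. The groups did not overlap, and the rise was 0.79 and 0.74 (SE 0.09; adjusted p = 3.67e-07 and 6.14e-07). Slc16a10, which carries aromatic amino acids, rose by 0.68 and 0.96 in EPM at 1 and 12 h and by 0.75 in BMDM at 12 h (adjusted p = 2.18e-05, 8.05e-08 and 1.32e-06). Its 2 other probes gave 0.54 and 1.26 in EPM at 1 h.

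Other monocarboxylate carriers fell. Slc16a7, a high-affinity carrier of pyruvate and lactate, went from 9.83 and 9.96 to 8.68 and 8.75 in EPM at 12 h, a fall of 1.18 (SE 0.07, adjusted p = 1.32e-10), and from 9.37 and 9.25 to 8.95 and 8.98 in BMDM, a fall of 0.35 (adjusted p = 0.00045). Slc16a6 fell by 0.64 and 0.77 at 12 h (adjusted p = 4.39e-06 and 2.84e-07). Slc16a1, the widely expressed carrier of lactate and pyruvate, rose by 0.47 in BMDM at 1 h and fell by 0.66 at 12 h (adjusted p = 0.000232 and 9.99e-07). Its fall of 0.33 in EPM at 12 h (adjusted p = 0.00228) was -0.04 over the mean of 3 probes (adjusted p = 0.609), and -0.22 without the first EPM KLA 12 h sample (adjusted p = 0.0581). Slc16a9 went opposite ways: it read 8.01 and 8.18 then 8.37 and 8.60 in EPM, a rise of 0.39 (adjusted p = 4e-04), and 7.93 and 8.02 then 6.90 and 7.03 in BMDM, a fall of 1.01 (adjusted p = 1.71e-09). Of the ancillary proteins of this family, Emb fell by 1.54 in EPM and 0.66 in BMDM at 12 h, and Bsg was not called (-0.15 and 0.07).

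Of 10 Slc7 genes, the exchangers of amino acids, 5 were higher and 1 lower in EPM at 12 h, and 6 higher and 3 lower in BMDM, beside 19.6% and 34.3% of all genes in EPM and 28.6% and 36.3% in BMDM. Slc3a2, the heavy chain that several Slc7 light chains need to reach the cell surface, read 14.64 and 14.73 in EPM after 12 h of DMSO and 15.54 and 15.55 after KLA, and 14.10 and 14.45 then 14.70 and 14.83 in BMDM. It rose by 0.86 and 0.49 (SE 0.09; adjusted p = 1.87e-07 and 0.000106). At 1 h its value in BMDM was 0.17 (adjusted p = 0.192, and 0.0393 with dye as a block), and a second probe gave 0.77; over the mean of both probes it was 0.47 (adjusted p = 0.00309). Slc7a5, the light chain for large neutral amino acids such as leucine, went from 8.56 and 8.61 to 9.22 and 9.30 in EPM and from 7.02 and 7.14 to 7.51 and 7.50 in BMDM at 12 h, a rise of 0.67 and 0.42 (adjusted p = 1.49e-06 and 0.000214). In BMDM at 1 h it fell by 0.35 (adjusted p = 0.00394), but this call was lost without the first DMSO sample (adjusted p = 0.0501) or the first KLA sample (adjusted p = 0.0768). Its controls in BMDM had gone from 7.92 and 7.83 to 7.02 and 7.14 between 1 and 12 h, and against both control arrays the 12 h value was 0.02 in BMDM and 0.74 in EPM, neither of them called.

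Slc7a8, a light chain for neutral amino acids of both small and large size, was among the brightest of these genes in macrophages. It read 12.92 and 13.18 in EPM after 12 h of DMSO and 14.29 and 14.54 after KLA, and 13.51 and 13.66 then 14.01 and 14.26 in BMDM. The groups did not overlap in either cell, and the rise was 1.37 in EPM and 0.55 in BMDM (SE 0.12; adjusted p = 8.71e-09 and 0.000377). In EPM at 1 h it rose by 0.42 (adjusted p = 0.0101), a call that was lost without the first untreated sample (0.27, adjusted p = 0.175) or the second KLA sample (0.35, adjusted p = 0.0894). Slc7a7, the light chain that exports arginine and lysine, was 0.59 higher in BMDM at 12 h (adjusted p = 6.31e-06), beside 0.17 in EPM (adjusted p = 0.0989). Slc7a6, a light chain of the same kind, went from 7.74 and 7.76 to 6.94 and 6.94 in BMDM, a fall of 0.81 (adjusted p = 3.25e-09), and was 0.23 higher in EPM (adjusted p = 0.00588), where a second probe gave -0.17. Slc7a4, a relative of the cationic amino acid carriers, fell by 0.45 and 1.00 (adjusted p = 7.64e-07 and 6.14e-12), and Slc7a3, a cationic carrier, rose by 0.55 and 0.34 (adjusted p = 8.69e-06 and 0.00092). The arginine carrier Slc7a1 was called lower in BMDM at 12 h, at -0.91 to -0.14 over the alternative ways of processing. It was not called in the other macrophage comparisons with KLA.

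Slc43a2 is a carrier of branched-chain amino acids and phenylalanine that works without exchange. By the probe used for each gene, it showed the steepest early decrease of all the carriers tested. It read 9.15 and 9.26 in untreated EPM and 6.75 and 6.72 after 1 h of KLA, and 9.21 and 9.26 then 6.59 and 6.80 in BMDM. This was a fall to a level 5.54-fold and 5.82-fold below the control (log2 -2.47 ± 0.10 and -2.54 ± 0.10, SE; adjusted p = 1.34e-12 and 8.52e-13). Over the alternative ways of processing, Slc43a2 at 1 h ranged from -3.50 to -1.51 in EPM and from -3.74 to -1.61 in BMDM. After 12 h it read 7.75 and 7.90 with DMSO and 6.92 and 6.96 with KLA in EPM, and 8.87 and 9.16 then 8.10 and 8.22 in BMDM. The gap had narrowed to -0.89 and -0.85 (adjusted p = 6.16e-07 and 7.01e-07), by 1.58 and 1.69 against 1 h (adjusted p = 5.34e-08 and 1.41e-08), with a control in EPM that was itself lower at 12 h than at the start. The probe used lies at chr11:75350746-75350805 of mm8 and has no RefSeq match. A second one, at chr11:75390639-75390698, matches RefSeq Slc43a2 and was well above background in all 24 channels. It was lower in all 4 comparisons too, but by more at 12 h (-1.35 and -1.78) than at 1 h (-0.56 and -0.68). The steep early fall and the narrowing were thus seen with the probe used only. With each array as 1 sample and both controls pooled, none of its 4 values was called (adjusted p = 0.25, 0.133, 0.181 and 0.278). Of the other Slc43 genes, Slc43a3, a purine nucleobase carrier, fell by 0.70 in BMDM at 12 h (adjusted p = 3.16e-07), beside 0.15 in EPM (adjusted p = 0.122).

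The glutamine carriers differed in timing. Slc1a5, a sodium-dependent exchanger of glutamine and other neutral amino acids, was not called at 1 h in either macrophage. At 12 h it read 10.26 and 10.37 with DMSO and 8.19 and 8.26 with KLA in BMDM, a 4.27-fold fall (log2 -2.09 ± 0.08, adjusted p = 8.32e-14), and 11.43 and 11.42 then 11.07 and 11.15 in EPM, a fall of 0.31 (adjusted p = 0.00317) that was not called without normalization between arrays (adjusted p = 0.135). Of the 5 Slc38 genes, 1 in EPM and 3 in BMDM were higher at 1 h, and at 12 h 2 were lower in each and 1 was higher in BMDM; of all genes, 9.39% and 11% were higher at 1 h and 34.3% and 36.3% lower at 12 h. Slc38a1, a sodium-coupled glutamine carrier, rose at 1 h by 0.31 in EPM and 0.44 in BMDM (adjusted p = 0.000661 and 2.43e-05) and fell at 12 h by 0.52 and 1.10 (adjusted p = 7.41e-07 and 1.4e-11). Its 4 other probes gave -0.03 to -0.98 in EPM and -0.27 to -1.67 in BMDM at 12 h. Slc38a2, the member that cells raise when amino acids are short, read 12.13 and 12.18 then 12.54 and 12.54 in BMDM at 1 h, and 11.76 and 11.84 then 10.63 and 10.81 at 12 h, which was a rise of 0.39 (adjusted p = 0.0179) and a fall of 1.08 (adjusted p = 1.83e-07). The rise was not called when any 1 of the 4 samples was left out (adjusted p = 0.0534 to 0.0986). In EPM Slc38a2 stood at 0.30 at 1 h (adjusted p = 0.0628, and 0.00684 with dye as a block) and at -0.32 at 12 h (adjusted p = 0.0284), while the mean over 4 probes at 12 h was -0.00 (adjusted p = 0.963). The glutamate carriers Slc1a1, Slc1a2 and Slc1a6 were dim, at 5.88 to 7.35 in all EPM and BMDM samples. Of these, Slc1a2, best known from astrocytes, was well above background in both macrophages only after 12 h of KLA, at least 1.48-fold higher in EPM and 1.23-fold in BMDM (adjusted p = 3.08e-06 and 0.000109).

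Among 14 Slc6 carriers, those of betaine, taurine, creatine and serotonin moved at 12 h. Slc6a12, which brings in betaine and GABA, read 7.23 and 7.12 in EPM after 12 h of DMSO and 9.47 and 9.44 after KLA, and 8.11 and 8.01 then 8.32 and 8.53 in BMDM. The EPM samples thus went from below the BMDM samples to above them, with a rise of 2.28 ± 0.08 in EPM and 0.36 ± 0.08 in BMDM (adjusted p = 1.38e-14 and 0.000445). Slc6a13, a GABA and taurine carrier whose gene lies beside it, rose by 0.68 and 0.45 (adjusted p = 6.94e-07 and 5.92e-05). The serotonin carrier Slc6a4 had no control sample in which it was well above background, and read 8.28 and 8.24 in EPM and 6.80 and 6.81 in BMDM after 12 h of KLA, at least 4.56-fold and 1.72-fold higher (adjusted p = 1.03e-16 and 8.11e-11). It too entered the fit only through these arrays, and with no filter the adjusted p was 5.33e-17 and 5.42e-11. Slc6a19, a carrier of neutral amino acids in gut and kidney, was dim throughout and was at least 1.58-fold higher in EPM at 12 h (adjusted p = 1.38e-06) and 0.58 higher in BMDM (adjusted p = 4.68e-06).

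The brightest Slc6 genes fell. Slc6a8, the creatine carrier, read 13.98 and 13.89 in untreated EPM, 13.53 and 13.49 after 1 h of KLA, 13.87 and 13.78 after 12 h of DMSO and 12.91 and 12.82 after 12 h of KLA, a fall of 0.42 and then 0.96 (SE 0.06; adjusted p = 3.46e-05 and 1.66e-10). In BMDM it went from 11.83 and 11.68 to 11.12 and 11.04 at 12 h, a fall of 0.68 (adjusted p = 1.47e-08). Slc6a6, the taurine carrier, fell by 0.58 and 0.91 at 12 h (adjusted p = 1.97e-06 and 3.13e-09), while a second, dimmer probe gave -0.02 and 0.00. Slc6a15, a carrier of branched-chain amino acids, was well above background in BMDM after 1 h of KLA (mean 6.95 ± 0.07, SD, n = 2) and in EPM after 12 h of DMSO (6.34 and 6.29) only, and exceeded its control by at least 1.77-fold in the first of these (adjusted p = 5.46e-09), where a second probe was not well above background and gave -0.01.

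Other carriers called were mostly of low signal. Slc2a2, the glucose carrier of liver and pancreatic beta cells, was higher after 12 h of KLA, at least 1.28-fold in EPM and 1.22-fold in BMDM (adjusted p = 2.74e-05 and 8.8e-05), at 6.36 to 6.54 on the log2 scale. At 1 h it was lower with KLA in BMDM (-0.30, adjusted p = 0.000646), at least 1.23-fold. Slc6a7, the proline carrier, read 7.23 and 7.06 in BMDM after 12 h of DMSO and 6.06 to 6.46 in the other 22 samples, a difference of -0.89 with KLA at 12 h (adjusted p = 1.11e-08) that rests on that 1 control array. Slc6a16, a family member with no settled substrate, was higher in EPM at 1 h (0.28) and in BMDM at 1 and 12 h (0.29 and 0.35), with adjusted p of 0.000527, 0.000312 and 1.1e-05. Slc7a9, a light chain for cystine and cationic amino acids that pairs with Slc3a1, was 0.26 and 0.40 higher at 12 h (adjusted p = 0.000509 and 3.03e-06), while Slc3a1 itself was not well above background in any macrophage group. The dopamine carrier Slc6a3 and Slc7a14 were called in none of the 4 macrophage comparisons, with differences of -0.05 to 0.01 and -0.15 to 0.02. With dye as a block, Slc7a14 was called in EPM at 12 h (-0.15, adjusted p = 0.0358).

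Promoter sequence from RefSeq (GRCm38.p6, 250 bases before and 50 bases after the start of a transcript) was at hand for 48 of the 66 genes tested. Of 5 motifs searched on both strands, the NF-kB motif, named for a factor that TLR4 activates, was in 2 of these 48 genes, which have 70 windows, or 2.86% of those windows beside 1.47% of all 32851; the genes were Slc6a12 and Slc6a13, whose windows with a match start 38935 bases apart on chromosome 6. The AP-1 motif TGANTCA was in 6 genes (10% of their windows and 7.81% of all), the E-box CACGTG in 8 (11.4% and 7.15%), and the amino acid response motif TGATGNAAT (0.965%) and the interferon response motif (3.44%) in none. The NF-kB and interferon response motifs were each 10 letters with the 2 middle bases unspecified, and are given by name. Windows of the neighbouring genes are shown because both rose at 12 h. Slc6a12 has 5 windows and Slc6a13 has 3, and the window shown of each is 1 that held a match. The NF-kB motif was in 2 of the 70 windows, so the other windows of these genes lacked it. The windows of Slc2a6 and Slc7a8 are shown because Slc2a6 had the largest rise and Slc7a8 the largest difference between macrophages and B cells. Capitals mark a match to the NF-kB motif and, nearer to the end of the Slc6a12 window, to the AP-1 motif. The Slc2a6 and Slc7a8 windows held none of the 5 motifs. A match in letters is not a binding site.
Slc6a12, chr6:121342324-121342623 on the + strand: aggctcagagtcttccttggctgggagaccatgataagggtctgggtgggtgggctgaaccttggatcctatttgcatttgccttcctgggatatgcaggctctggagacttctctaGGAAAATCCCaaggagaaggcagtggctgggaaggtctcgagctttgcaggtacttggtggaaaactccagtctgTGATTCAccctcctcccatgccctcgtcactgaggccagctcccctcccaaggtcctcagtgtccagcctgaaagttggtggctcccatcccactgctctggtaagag
Slc6a13, chr6:121303389-121303688 on the + strand: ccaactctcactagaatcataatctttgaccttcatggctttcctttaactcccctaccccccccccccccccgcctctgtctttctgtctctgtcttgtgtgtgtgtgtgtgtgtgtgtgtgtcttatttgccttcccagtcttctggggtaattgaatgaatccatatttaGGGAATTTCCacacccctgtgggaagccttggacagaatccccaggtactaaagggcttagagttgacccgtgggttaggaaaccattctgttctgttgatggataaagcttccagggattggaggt
Slc2a6, chr2:27027949-27028248 on the - strand: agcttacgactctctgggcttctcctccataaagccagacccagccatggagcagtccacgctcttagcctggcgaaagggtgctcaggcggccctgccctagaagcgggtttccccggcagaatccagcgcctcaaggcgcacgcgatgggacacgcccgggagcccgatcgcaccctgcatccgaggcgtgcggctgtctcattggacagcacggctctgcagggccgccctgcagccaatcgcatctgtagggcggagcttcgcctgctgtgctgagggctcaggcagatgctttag
Slc7a8, chr14:54781837-54782136 on the - strand: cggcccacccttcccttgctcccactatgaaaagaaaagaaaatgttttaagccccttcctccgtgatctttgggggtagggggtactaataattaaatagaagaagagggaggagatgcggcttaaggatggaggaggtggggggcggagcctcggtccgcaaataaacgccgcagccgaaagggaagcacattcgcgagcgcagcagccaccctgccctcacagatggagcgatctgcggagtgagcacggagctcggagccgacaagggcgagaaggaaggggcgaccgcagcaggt

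The response to KLA differed between EPM and BMDM for 10 of the carriers at 1 h and for 32 at 12 h. The 1 h control was untreated cells for EPM and DMSO for BMDM, so vehicle and cell type cannot be told apart there. At 1 h, 3 of 66 responses were higher in EPM and 7 lower (4.07% and 5.5% of all genes), and at 12 h 20 were higher and 12 lower (23.2% and 24.6%). The largest at 12 h were Slc6a12 (1.92 ± 0.11, adjusted p = 1.18e-10), Slc1a5 (1.78 ± 0.12, 6.45e-10) and Slc16a9 (1.40 ± 0.11, 9.44e-09) on the side of EPM, and Slc2a6 (-1.39 ± 0.18, 4.42e-06) and Slc16a7 (-0.83 ± 0.10, 3.42e-06) on the side of BMDM. Slc5a12, well above background in 1 of the 4 arrays compared, stood at -2.08 (adjusted p = 8.24e-13), and this size ranged from -6.43 to -0.97 over the alternatives. Its other probe, which has the RefSeq match, was well above background in no channel. For Slc1a5 the fall belonged mainly to BMDM, for Slc16a7 mainly to EPM, and for Slc2a6 both kinds of macrophage rose from unequal controls. Slc6a4 (1.36) and Slc7a6 (1.04) also differed (adjusted p = 1.18e-10 and 4.3e-08). With each array as 1 sample and the controls pooled, 6 of the 12 h differences were called, those of Slc1a5, Slc2a6, Slc5a12, Slc6a12, Slc6a4 and Slc7a6, against 2.42% of all genes. Of these, Slc5a12 and Slc6a4 entered the fit only through the KLA arrays of 12 h in which they were well above background. At 1 h limma then called 0 carriers (4 at an unadjusted p under 0.05) and 0 of 17344 genes. The response changed between 1 and 12 h for 18 genes upward and 14 downward in EPM (19.4% and 24.3% of all genes). In BMDM it changed for 22 and 24 (24.5% and 29.9%). The control in EPM was untreated cells at 1 h and DMSO at 12 h.

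**Figure D3:**
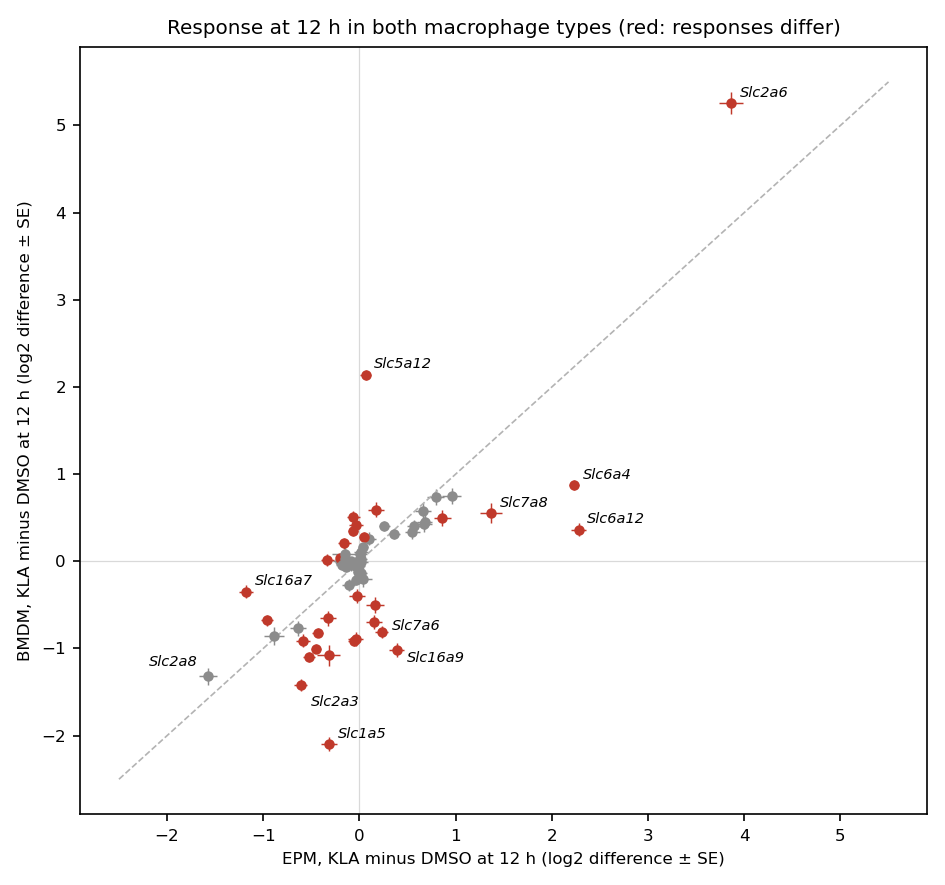
Log2 difference between KLA and DMSO at 12 h in EPM (x axis) against BMDM (y axis), 1 point per carrier with SE bars, and in red the genes whose responses differed between the cells. Slc2a6 lies at 3.86 and 5.26, Slc6a12 at 2.28 and 0.36, Slc1a5 at -0.31 and -2.09 and Slc5a12 at 0.06 and 2.14.

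Before KLA the 2 kinds of macrophage already differed in many carriers. In the early controls 22 of 66 were higher in EPM and 22 in BMDM (28.5% and 29.3% of all genes), and in the 12 h controls 22 and 20 (27.2% and 29.8%). The early controls were untreated EPM and BMDM after 1 h of DMSO, so vehicle and cell type cannot be told apart there. The creatine carrier Slc6a8 was 1.96 higher in EPM in the early controls (13.98 and 13.89 against 12.01 and 11.93) and 2.07 higher at 12 h. On the log2 scale Slc1a5 was 1.22 and 1.11 higher in EPM and Slc2a6 1.64 and 1.37, and Slc7a5 was 1.49-fold and 2.83-fold higher, with adjusted p at or below 9.57e-06 for each of these 4 genes. On the side of BMDM were Slc6a13 (8.13 and 8.25 against 6.27 and 6.53; -1.79 and -2.23), Slc43a3 (-1.65 and -1.84), Slc5a11 (-1.64 and -1.73) and Slc2a3 (-1.09 and -1.16), with adjusted p at or below 4.95e-11. Slc38a4, an amino acid carrier of the liver, was by the probe used well above background in EPM and not in BMDM, at least 1.81-fold and 2.26-fold higher. A second probe of Slc38a4 was well above background in more channels of the series (16 against 8).

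Carriers differed between macrophages and untreated B cells about as often as all genes did. Of 66 genes, 29 were higher in macrophages and 22 in B cells (43.9% and 33.3%), against 41.4% and 38.2% of all genes. Slc7a8 read 12.99 to 13.56 in the 4 early macrophage controls and 6.20 and 6.15 in B cells, where it was not well above background, and was at least 141-fold higher in macrophages (adjusted p = 3.47e-21). Slc6a8 was 6.65 ± 0.05 higher on the log2 scale (B cells 6.32 and 6.28), and Slc16a3 (4.82), Slc16a7 (3.24), Slc16a10 (3.02) and Slc7a7 (2.74) followed. The opposite was true of Slc7a5, at 12.84 and 12.84 in B cells and 7.83 to 8.55 in the macrophages, a difference of -4.67 ± 0.07 (adjusted p = 1.46e-20). Slc1a5 (-3.14), Slc1a4 (-3.10), the glycine carrier Slc6a9 (-2.54) and Slc38a2 (-2.49) were also higher in B cells, and so was the arginine carrier Slc7a1 at -3.12, whose second probe gave -0.42. The heavy chain Slc3a2 differed by only 0.23 ± 0.08 (adjusted p = 0.0113). The summed log2 level of 4 erythroid genes was 11.98 to 13.51 in the B cell groups and 8.46 to 8.57 in the macrophage groups, that of 8 T cell genes 12.29 to 12.61 and 9.952 to 10.25, and their part in these differences was not tested. Of the 8 T cell genes, 4 to 5 were well above background in both channels of each B cell group and 2 to 6 in each macrophage group. The T cell gene Thy1 was not well above background in any B cell group.

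**Figure D4:**
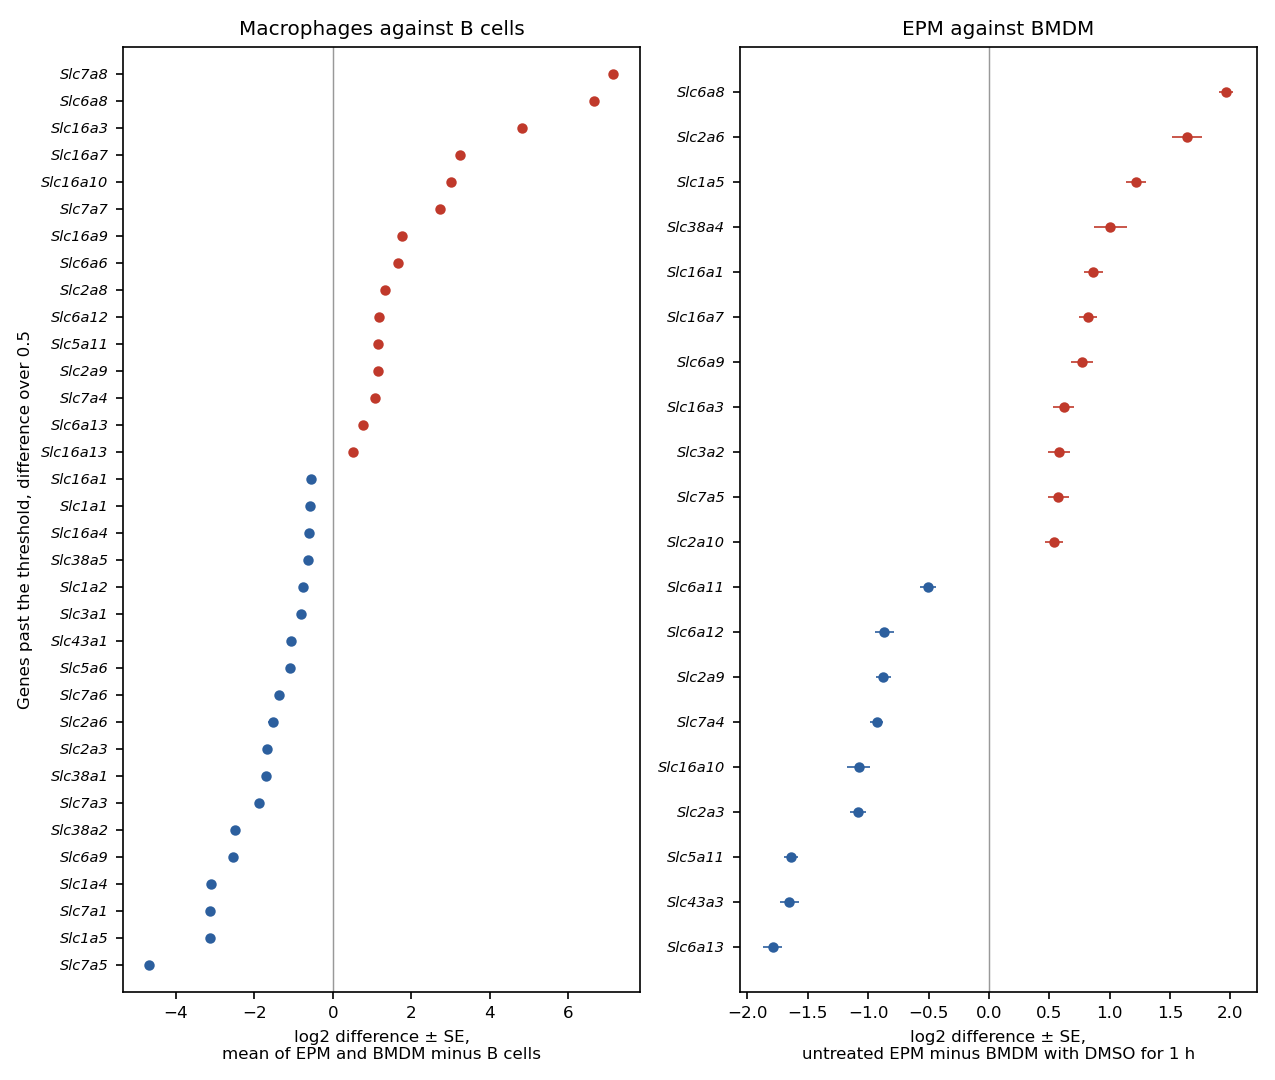
Log2 differences in control cells for the carriers that were called with a difference over 0.5, with 34 genes shown in macrophages against B cells and 20 in EPM against BMDM, 1 point per gene and SE as error bars. Slc7a8 and Slc6a8 stand out on the macrophage side at 7.13 and 6.65 and Slc7a5 on the B cell side at -4.67; Slc6a8 also leads on the EPM side and Slc6a13 on the BMDM side.

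In B cells few carriers were called after KLA, and the values depend on the 2 labels in doubt. At 1 h, 1 gene was higher and 4 lower, against 2.72% and 2.45% of all genes, and at 12 h 7 were higher and 1 lower, against 2.81% and 2.48%. With the labels exchanged, 35 and 31 of the 66 were called, against 47.4% and 49.1% of all genes. Slc7a3, the cationic amino acid carrier, read 8.95 and 8.95 after 12 h of DMSO and 10.64 and 10.40 after 12 h of KLA, above all other B cell samples, which were at 8.11 to 8.95. Its difference was 1.57 (adjusted p = 1.06e-10), and 2.34 with the labels exchanged. The glycine carrier Slc6a9 went from 11.49 and 11.53 to 12.22 and 12.41 (0.80, adjusted p = 7.6e-06; 0.41 exchanged), and Slc43a3 was 0.53 higher (adjusted p = 0.00019; 0.87 exchanged). Slc7a1 (0.55), Slc7a5 (0.44) and Slc16a1 (0.35) were higher as labelled, and lower with the labels exchanged (-1.41, -1.17 and -0.66). Slc43a1 at 12 h (-0.24, adjusted p = 0.0447) was not called without either DMSO sample or without the first KLA sample (adjusted p = 0.127, 0.215 and 0.412), and was 0.16 exchanged. At 1 h the largest value was that of Slc38a3, a glutamine carrier of liver and brain. It read 8.52 and 8.53 on the array labelled KLA 1 h and 6.16 to 6.67 in all other samples of the 3 cell types. Its difference at 1 h was 2.18, and -0.10 with the labels exchanged. At 12 h its difference was 0.05 as labelled and -2.23 exchanged (adjusted p = 2.27e-15). Also at 1 h, Slc1a2 (-0.80) and Slc1a1 (-0.69) were at least 1.58-fold and 1.51-fold lower, and -0.60 and -0.50 exchanged.

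Genes around the carriers were read at 12 h beside all genes tested, of which 19.6% were higher and 34.3% lower in EPM and 28.6% and 36.3% in BMDM. Of 24 genes of the amino acid starvation response, which ATF4 drives, 13 were higher and 6 lower in EPM, and 7 higher and 13 lower in BMDM. Nupr1 (1.90 and 2.86), Trib3 (0.71 and 0.81) and Ddit3 (0.63 and 0.94) were higher in both, whereas Ddit4 (1.43 and -1.25), Vldlr (0.45 and -1.36) and the asparagine synthetase Asns (0.38 and -0.66) had opposite signs, all of them called. Of 15 enzymes that use what the carriers bring in, 4 were higher and 8 lower in EPM and 4 higher and 6 lower in BMDM. The hexokinases Hk1 (0.25 and 0.77), Hk2 (1.01 and 0.74) and Hk3 (0.58 and 1.32) rose, while the glutamine synthetase Glul (-1.73 and -2.28), the glutamate dehydrogenase Glud1 (-1.18 and -1.01), the lactate dehydrogenase Ldhb (-1.41 and -1.34) and the creatine kinase Ckb (-1.91 and -1.87) fell. In B cells at 12 h, 16 of the 24 starvation response genes were higher as labelled, beside 2.81% of all genes. After the exchange of labels 6 were higher and 15 lower, where 49.1% of all genes were called.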

How the data were processed

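RNA of 24 samples, 2 in each of 12 conditions, was hybridized by the authors to 12 Agilent two-colour mouse arrays (probe coordinates on mm8), with replicate 1 in Cy5 and replicate 2 in Cy3 of the same array. Per the file headers, the deposited intensity values are mean spot and local background signals from Agilent Feature Extraction 9.5.3.1, with flags for spots well above background. The authors also deposited a table of normalized intensities whose normalization is not given in the sources used here; it served as an alternative. The study's methods mention biological triplicates, and 2 samples a condition were analysed here.

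Signals were background-corrected (normexp, offset 50), normalized by loess within arrays and Aquantile between arrays, and taken as log2 intensity per channel with limma 3.58.1 in R 4.3.3. Outlier spots were left out (134 missing values), spots of a probe were averaged, and the probe with the highest mean stood for a gene. A gene entered the limma fit where both channels of 1 or more conditions exceeded background by the scanner's flag, with 1 mean per condition, 12 residual degrees of freedom, two-sided tests and Benjamini-Hochberg adjustment over all genes, at an adjusted p of 0.05. Since both samples of a condition share an array, p-values measure the spread between 2 channels of 1 array. The number of samples limits the precision; the median SD between replicates was 0.0533 to 0.0627. The alternatives tried were another offset, other or no normalization between arrays, centring, other filters, the mean over probes, dye as a block, leaving out samples, array means, separate fits, processed signals, the authors' table, a stricter threshold and exchanged B cell labels. An "at least" fold sets the brighter group against the lowest signal well above background. Dye pairs the channels: the Cy5 minus Cy3 differences of all 66 pairs of arrays were correlated across genes (0.267 to 0.6274), so dye is a candidate block. The fit was tested on simulated data.

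Carriers, gene lists and tests were chosen with earlier results of these data known. Chosen for naming were the largest called changes whose replicates did not overlap and whose brighter group was well above background (5 up and 4 down per macrophage comparison, 4 each way between controls, 2 each way in B cells). For differences in response, the 3 largest called each way were chosen without these conditions. A fixed list of carriers with a role in leukocytes was added. Not every value of these genes is printed. Other genes were named after their values were seen. Of 111 probes of the carriers with a RefSeq match, 110 kept their symbol. Some of the carriers and marker genes are counted but not reported by name here.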

Additional observations from a re-analysis of the deposited data

Results flagged for a closer look

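The results below had responses to KLA that differed between EPM and BMDM by the interaction test of limma, given as the EPM response minus the BMDM response on the log2 scale with 2 samples a group. At 1 h the control was untreated cells for EPM and DMSO for BMDM.

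At 12 h, Slc6a12 (1.92), Slc1a5 (1.78) and Slc16a9 (1.40) had a more positive difference in EPM, and Slc5a12 (-2.08), Slc2a6 (-1.39) and Slc16a7 (-0.83) a more positive one in BMDM. Slc6a12 and Slc2a6 rose in both, Slc1a5 fell in both and by more in BMDM, and Slc16a7 fell in both and by more in EPM. In both kinds of macrophage both samples with KLA lay on the same side of both controls for all of these genes except Slc5a12 in EPM. Slc16a9 went up in EPM and down in BMDM.

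At 1 h, Slc5a1 (1.26), Slc16a10 (0.53) and Slc2a13 (0.34) had a more positive difference in EPM, and Slc2a6 (-1.03), Slc6a15 (-0.86) and Slc5a10 (-0.41) a more positive one in BMDM. Slc2a6 rose in both. The values of Slc5a1, Slc6a15 and Slc2a13 each rest on 1 array in which the gene was well above background at that time, the KLA array of EPM for Slc5a1, the KLA array of BMDM for Slc6a15 and the DMSO array of BMDM for Slc2a13. Their sizes are therefore loose: over the alternatives Slc5a1 ranged from 0.59 to 4.97, Slc6a15 from -3.52 to -0.39 and Slc2a13 from 0.10 to 2.86, and at 12 h Slc5a12, well above background in 1 array, ranged from -6.43 to -0.97. The difference of Slc16a10 was not called without any 1 of 4 samples (adjusted p = 0.0802 to 0.0925 for 3 of them, and 0.05 without the first untreated EPM sample), and that of Slc5a10 was not called without any 1 of 4 samples (adjusted p = 0.0674 to 0.0821). Slc2a13 had a difference of 0.15 over the mean of its probes (adjusted p = 0.188). Like Slc5a1 and Slc5a12, it entered the fit only through the 1 array where it was well above background. With each array as 1 sample and the controls of a cell type pooled, 0 of the 1 h differences were called by limma (4 carriers at an unadjusted p under 0.05, and 0 of 17344 genes called), and at 12 h Slc16a7 (-0.95, adjusted p = 0.0893) and Slc16a9 (1.41, adjusted p = 0.0527) were not called.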

How the results depend on the processing

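Of 2415 recomputed values of the carriers named, 2284 kept their direction and their side of the threshold, 101 lost the call, 25 gained it and 5 turned. Of 114 called values, 71 kept direction and call under every alternative run. The counts of carriers called (15 and 35 in EPM at 1 and 12 h, 19 and 47 in BMDM, 5 and 8 in B cells) moved as follows. Among the 34 carriers well above background in all 24 channels, a shorter list by construction, they were 9, 21, 12 and 31 in macrophages. Of all genes so filtered, 35.5%, 60.7%, 32.7% and 74% were called there. In B cells at 1 h limma called 0 (2 at an unadjusted p under 0.05, and 3.67% of all genes called). The control comparisons gave 23, 24 and 31 (62.2%, 60.8% and 84.9% of all genes). Differences in response gave 4 and 20 at 1 and 12 h (6.6% and 50.8%). Those of 12 h against 1 h gave 18 and 26 in EPM and BMDM (47.7% and 61.2%). With each array as 1 sample and both controls of a cell type pooled, the unit and the control change together. The counts were then 2, 18, 1 and 24 in macrophages (1.95%, 22.7%, 1.38% and 34.6% of all genes). In B cells limma called 0 and 0 (1 and 1 at an unadjusted p under 0.05), and 0 of all genes. Differences in response gave 0 and 6 (0% and 2.42% of all genes). Chosen after seeing the data, the early controls of EPM against BMDM gave 15 (19.6% of all genes). At a threshold of 0.01 the counts were 12 in BMDM, 3 in B cells and 5 for responses, all at 1 h. Of all genes, 19%, 2.36% and 5.82% were then called. All B cell counts are as labelled unless said otherwise. In B cells they were 35 and 31 with the labels exchanged (47.4% and 49.1% of all genes). They were 32 and 29 in the authors' table (41.8% and 44.2%), and 3 and 5 when fitted apart (2.26% and 3.07%).

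Leaving out 1 sample gave 11 to 13 and 31 to 34 in EPM, 11 to 18 and 44 to 45 in BMDM, 3 and 5 to 7 in B cells, 37 to 43 and 34 to 39 between macrophage controls, 47 to 51 for macrophages against B cells, 5 to 9 and 26 to 32 for responses, and 28 to 33 and 38 to 43 for 12 h against 1 h. The lowest for BMDM at 1 h came without the first DMSO sample (11) or the first KLA sample (12). Leaving out any sample of B cells at 1 h gave 3, leaving out the first DMSO or the second KLA sample gave 5 in B cells at 12 h, and the responses at 1 h gave 6 without the first BMDM DMSO or second BMDM KLA sample and 5 without the first EPM KLA or first untreated EPM sample. With dye as a replicate block the counts were 19, 37, 23, 48, 6 and 11 in the order of the first counts. Of all genes, 40.7%, 61.2%, 39.7%, 71%, 13.9% and 11.2% were then called. This pairing ended no call of a carrier.

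The values that turned were Slc7a5 in BMDM at 1 h (0.05 with array means and pooled controls), Slc38a3 in B cells at 1 h (-0.10 with labels exchanged, -0.0899 in the authors' table) and Slc43a1 in B cells at 12 h (0.16 and 0.28); the cause was not tested. Signal over background limits the genes near the lowest signals well above background (5.44 to 6.16 on the log2 scale).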
